A study of Mus musculus with 33 samples.

Results

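The Fc receptors are the proteins through which cells bind the constant (Fc) part of antibodies. The 6 genes described here, *Fcgr1*, *Fcgr2b*, *Fcgr3*, *Fcgr4*, *Fcer1g* and *Fcgrt*, were chosen by gene name, with earlier results of these data known, and they are 6 of the 41565 named genes of the deposited table. All 6 were found in it and all 6 passed the filter on low values in both regions. They were measured in bulk RNA-seq libraries of 2 dissected hypothalamic regions of the mouse, the posterior hypothalamus (PH) and the preoptic area (POA), which the study compared at progressive times after loss of the ovaries. All mice were adult WT females of the C57BL/6 strain. The intact group had its ovaries and was killed in diestrus, a phase of the estrous cycle, and the others were killed 14 days or 4 months after bilateral ovariectomy (OVX). The PH gave 4 intact libraries, 6 at 14 days and 6 at 4 months, and the POA gave 5, 6 and 6. OVX was done between 3 and 4 months of age. The study states that its 4-month group had no intact controls of matching age, so age and time since OVX cannot be told apart. Control titles read sham although a second label and the study's methods call these mice intact, and 1 POA library whose time label holds just the number 14 was counted as a 14-day library. Every group is split by its labels over batch 1 and batch 2, which each hold 2 or 3 of its libraries. Nothing in the labels ties the libraries of a group to separate animals, so *P* values measure the spread between libraries. The study collected the PH and the POA of its females, so libraries of the regions may share mice and may not be independent.

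In the brain, IgG Fc receptors are carried mainly by microglia and by the macrophages of the brain's borders, which use them to take up antibody-coated material. *Fcgr1*, *Fcgr3* and *Fcgr4* encode activating receptors, which signal through the γ chain encoded by *Fcer1g*, an adaptor with an immunoreceptor tyrosine-based activation motif (ITAM) that recruits the kinase Syk. *Fcgr2b* encodes the single inhibitory IgG receptor, whose cytoplasmic motif (ITIM) recruits the phosphatase SHIP1 and damps the signal of the activating receptors. *Fcgrt* encodes FcRn, a receptor related to MHC class I that pairs with β2-microglobulin and rescues IgG from lysosomes, with a large part of its expression in endothelium.

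In the GRCm39 assembly with GENCODE M39, 4 of the genes lie close together on chromosome 1. *Fcgr2b* lies at chr1:170786186-170804177, *Fcgr4* at chr1:170846466-170857330, *Fcgr3* at chr1:170878738-170893549 and *Fcer1g* at chr1:171057141-171062219. *Fcgr1* lies at chr3:96190225-96201338 and *Fcgrt* at chr7:44742412-44756819. *Fcgr2b* and *Fcgr3* are close relatives, and part of their coding sequence cannot be told apart by short reads. Coding exon number 4 of the canonical transcript is 255 bases long in both and 250 of the bases are the same (98.0%). The exon is shown for both genes because a read that lies within it differs only where it covers 1 of the 5 bases in capitals. Its positions are chr1:170794015-170794269 for *Fcgr2b* and chr1:170881508-170881762 for *Fcgr3* (GRCm39, minus strand).
Fcgr2b exon: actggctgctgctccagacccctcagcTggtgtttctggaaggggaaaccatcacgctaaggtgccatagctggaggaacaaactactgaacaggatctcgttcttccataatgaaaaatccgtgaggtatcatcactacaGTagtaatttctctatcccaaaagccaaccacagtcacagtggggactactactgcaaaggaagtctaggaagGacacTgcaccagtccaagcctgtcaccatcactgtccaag
Fcgr3 exon: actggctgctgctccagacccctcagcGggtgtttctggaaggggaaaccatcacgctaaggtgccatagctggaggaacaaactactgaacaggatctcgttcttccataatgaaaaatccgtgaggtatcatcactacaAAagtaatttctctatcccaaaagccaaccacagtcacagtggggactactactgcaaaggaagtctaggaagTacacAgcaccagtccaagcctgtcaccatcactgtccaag
Coding exon number 3 holds a further identical stretch of 102 bases. The authors assigned reads with kallisto, which compares short words of sequence. Of the 5784 distinct words of 31 bases in the annotated *Fcgr2b* transcripts, 235 (4.06%) also occurred in *Fcgr3*, and these were 7.12% of the 3299 words of *Fcgr3*. None of the other pairs of the 6 genes shared a word of this length. The word length of 31 is kallisto's default, and the one the authors used was not given in the sources used here.

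The stretches around the transcription start of *Fcgr2b* and *Fcgr3* are shown because these were the receptor genes with the largest differences at 4 months. They run from 250 bases before the start to 50 after it and come from RefSeq (GRCm38.p6, both on the minus strand, chr1:170976022-170976321 and chr1:171059354-171059653), where all 6 genes were matched. For *Fcgr3* the first of 2 listed starts is shown. Both strands were searched for 4 motifs, and their matches are in capitals.
Fcgr2b start: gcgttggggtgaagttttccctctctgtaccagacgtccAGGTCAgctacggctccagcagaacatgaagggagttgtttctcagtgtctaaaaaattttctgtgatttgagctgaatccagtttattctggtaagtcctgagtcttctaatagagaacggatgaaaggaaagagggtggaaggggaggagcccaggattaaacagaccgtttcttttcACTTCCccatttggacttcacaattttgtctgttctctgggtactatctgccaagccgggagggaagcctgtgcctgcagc
Fcgr3 start: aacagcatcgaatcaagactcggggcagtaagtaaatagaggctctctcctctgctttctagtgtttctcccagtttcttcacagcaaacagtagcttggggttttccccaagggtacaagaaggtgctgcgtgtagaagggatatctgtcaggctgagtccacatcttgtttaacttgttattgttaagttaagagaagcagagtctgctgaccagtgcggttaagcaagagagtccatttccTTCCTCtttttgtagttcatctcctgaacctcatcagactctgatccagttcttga
The motifs were GAGGAA and GGAAGT (cores of sites for ETS factors, the family of the myeloid factor PU.1), TTCNNNGAA (a STAT site) and AGGTCA (a single arm of an estrogen response element). Of all 32851 RefSeq stretches of this length, 28.3% held GAGGAA, 23.8% GGAAGT, 8.3% TTCNNNGAA and 16.3% AGGTCA. *Fcgr2b* had 1 match to GGAAGT, beginning 31 bases before the start, and 1 to AGGTCA, beginning 211 bases before it. *Fcgr3* had 1 match to GAGGAA, 6 bases before the start. *Fcgr1* and *Fcgr4* each had 1 match to GAGGAA and 1 to GGAAGT, and *Fcgr1* also had 1 to TTCNNNGAA. *Fcer1g* and *Fcgrt* had 0 matches to any of the 4 in these windows. These matches are a description of the letters and say nothing about binding.

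The deposited values are normalized signal on a linear scale, without read counts, in which unexpressed genes lie at a floor of 22.1 rather than at 0. They carry no depth, so counting error is unknown, and the sums of the libraries, 44.6 to 73.1 in mega units, are not read totals. Differences in level between the PH and the POA are not given, because a component that separates the regions appears to have been subtracted from the table. In the PH, 14-day replicate 5 stands apart from the other libraries, with a value of 0.785 on the first surrogate variable (SV1), a latent factor estimated from all genes. It was the highest of its group for *Fcgr2b*, *Fcgr3*, *Fcgr4* and *Fcer1g* and the lowest for *Fcgr1* and *Fcgrt*. Without it, the 14-day log2 fold change in the PH was 0.24 for *Fcgr2b*, 0.17 for *Fcgr3*, 0.04 for *Fcer1g* and *Fcgr1*, -0.07 for *Fcgr4* and -0.04 for *Fcgrt*, and every adjusted *P* remained 1.

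Levels of different genes were compared as signal over the floor per kilobase of the canonical transcript. In intact PH libraries *Fcgr3*, the low-affinity activating receptor, was the highest at 259 ± 37.6 (SD, n = 4). *Fcer1g* at 179 ± 45.6 and *Fcgrt* at 178 ± 16.6 followed and did not differ beyond their spread. *Fcgr1*, the high-affinity activating receptor, was at 52.2 ± 9.9 and *Fcgr2b* at 40.5 ± 10.6, again within their spread of each other. *Fcgr4*, the receptor for IgG2 subclasses, was the lowest at 15 ± 6.87. In the intact POA (n = 5) the order was the same, with *Fcgr3* at 262 ± 38.6, *Fcer1g* at 191 ± 36.9, *Fcgrt* at 176 ± 18.6, *Fcgr1* at 46.8 ± 3.51, *Fcgr2b* at 43.6 ± 4.5 and *Fcgr4* at 13.3 ± 6.18. The 6 genes have different numbers of annotated transcripts, so these per-length levels depend on the transcript taken.

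**Figure D1:**
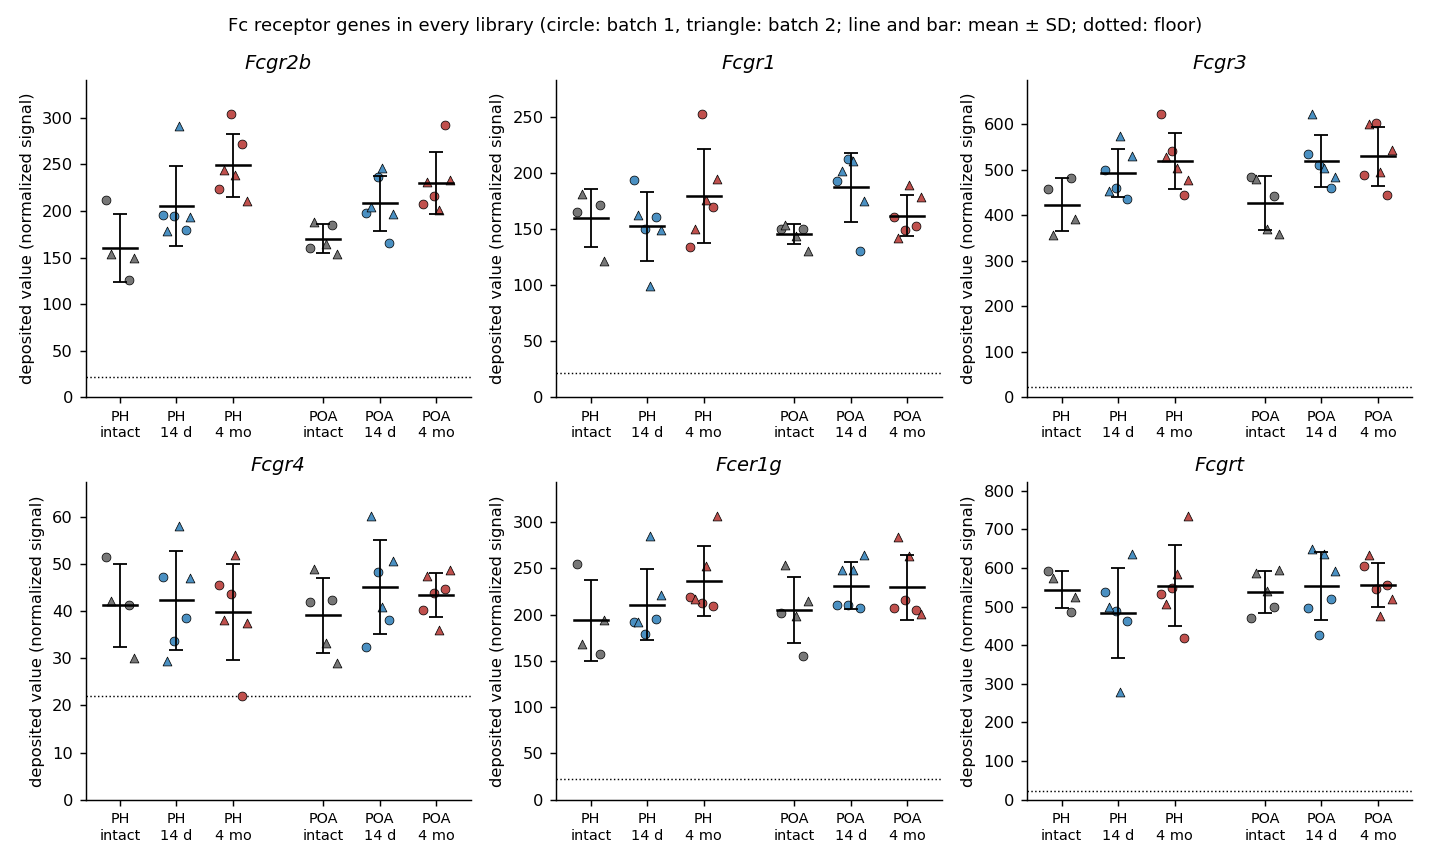
Deposited signal (linear, axis from 0) of the 6 Fc receptor genes in each of the 33 libraries, by region and group, with the mean ± SD as a line and bar and the floor of 22.1 dotted. *Fcgr2b* in the PH lies between 126 and 211 in intact libraries and between 211 and 304 at 4 months, whereas *Fcgrt* overlaps in all groups and *Fcgr4* stays near the floor.

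*Fcgr2b*, the inhibitory receptor, showed the largest difference of the 6 genes at 4 months, in the PH as in the POA. The 4 intact PH libraries had deposited values of 211, 126, 154 and 149. At 14 days the lowest, median and highest were 179, 194 and 292, and at 4 months 211, 241 and 304. The 4-month libraries lay above 3 of the 4 intact libraries in 6 of 6 cases, and 5 of 6 lay above every intact library, since intact replicate 1 at 211.3 slightly exceeded the lowest 4-month value of 210.8. The log2 fold change against intact was 0.68 ± 0.13 (SE) at 4 months, a fold of 1.61 (unadjusted *P* = 3.03e-05, adjusted *P* = 0.074, limma), and the gene was not called. By unadjusted *P* it ranked 9 among the 21991 genes tested. At 14 days the difference was 0.25 ± 0.13 (unadjusted *P* = 0.0665, adjusted *P* = 1, limma), or 0.14 without PH intact replicate 2, the lowest of its group, 0.36 with no covariate (0.365) and 0.51 within batch 2. The 4-month libraries exceeded the 14-day libraries by 0.43 ± 0.12 (unadjusted *P* = 0.00175, adjusted *P* = 0.8).

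The position of *Fcgr2b* on the threshold in the PH depended on single libraries and on the covariate. Without PH intact replicate 1, the highest of its group, the log2 fold change was 0.77 and the adjusted *P* was 0.039 by limma. Without PH 4-month replicate 1 it was 0.73, with an adjusted *P* of 0.0474 by limma. With no covariate it was 0.65 with an adjusted *P* of 0.709, and over the 25 alternatives it ran from 0.57 to 0.77, with adjusted *P* values of 0.039 to 1. Within batch 1 the difference was 0.70 and within batch 2 it was 0.61.

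In the POA, the 5 intact libraries had *Fcgr2b* values of 160, 185, 188, 164 and 154. At 14 days the lowest, median and highest were 166, 201 and 246, and at 4 months 201, 224 and 292. All 6 of the 4-month libraries lay above every intact library, and this was the only pairing of a gene and a comparison among the 6 genes in which the groups did not overlap. Of all 21359 genes tested in the POA, 0.412% had every 4-month library above every intact one and 0.253% every one below. At 14 days, 5 of 6 libraries lay above every intact one. The log2 fold change was 0.29 ± 0.12 at 14 days (unadjusted *P* = 0.0267, adjusted *P* = 0.8, limma) and 0.43 ± 0.12 at 4 months (unadjusted *P* = 0.00178, adjusted *P* = 0.247, limma), and neither was called. Within batch 1 the 4-month difference was 0.45 and within batch 2 it was 0.39, and over the 26 alternatives it ran from 0.36 to 0.48.

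*Fcgr3*, which encodes the activating receptor most similar to *Fcgr2b*, was the highest of the 6 genes per kilobase (above), while *Fcgrt* had higher deposited values. In the PH, the 4 intact libraries had deposited values of 459, 483, 357 and 393. The lowest, median and highest were 437, 480 and 575 at 14 days and 444, 516 and 623 at 4 months. At 4 months, 4 of 6 libraries lay above every intact library, and the groups overlapped. The log2 fold change in the PH was 0.18 ± 0.11 at 14 days (unadjusted *P* = 0.131) and 0.31 ± 0.11 at 4 months (unadjusted *P* = 0.0106, adjusted *P* = 0.645, limma).

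In the POA, *Fcgr3* lay at 484, 444, 481, 369 and 360 in the 5 intact libraries. The lowest, median and highest were 460, 507 and 623 at 14 days and 444, 520 and 602 at 4 months. At both times 5 of 6 libraries exceeded every intact library. The log2 fold changes were 0.29 ± 0.11 at 14 days (unadjusted *P* = 0.015, adjusted *P* = 0.8, limma) and 0.31 ± 0.11 at 4 months (unadjusted *P* = 0.00915, adjusted *P* = 0.385, limma). The 2 times did not differ beyond the error in the POA, at 0.02 ± 0.10.

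Among the receptors encoded by *Fcgr1*, *Fcgr2b*, *Fcgr3* and *Fcgr4*, only that of *Fcgr1* binds single IgG molecules with high affinity. The *Fcgr1* gene is induced by interferon-γ. In the PH, the intact libraries had values of 165, 172, 181 and 122, and the lowest, median and highest were 98.9, 155 and 194 at 14 days and 134, 173 and 253 at 4 months. These groups overlapped widely, with log2 fold changes of -0.01 ± 0.18 at 14 days and 0.13 ± 0.18 at 4 months, both far from the threshold. In the POA, the intact libraries were tightly grouped at 150, 150, 154, 144 and 130. At 14 days, 5 of 6 POA libraries lay above all of them, with a lowest, median and highest of 130.5, 197 and 213, and at 4 months these were 142, 157 and 190. The log2 fold change in the POA was 0.36 ± 0.12 at 14 days (unadjusted *P* = 0.00759, adjusted *P* = 0.8, limma) and 0.17 ± 0.12 at 4 months (unadjusted *P* = 0.182). The 14-day difference was 0.22 within batch 1 and 0.45 within batch 2. *Fcgr1* thus had its largest difference in the POA at the earlier time, and the 4-month against 14-day difference there was -0.19 ± 0.11 (unadjusted *P* = 0.109), within the error of the test.

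*Fcgr4* was close to the floor throughout, with values of 22.03 to 60.16 over the 33 libraries. It passed the filter with 6 of 16 PH and 7 of 17 POA libraries at 2 times the floor. The log2 fold changes at 14 days and 4 months were -0.04 ± 0.23 and -0.05 ± 0.23 for the PH, and for the POA 0.21 ± 0.16 and 0.19 ± 0.16. Because the floor is part of each value, fold changes of such a gene are compressed.

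*Fcer1g*, the γ chain that the 3 activating receptors need at the cell surface, had values of 255, 157, 169 and 194 in the intact PH libraries. The lowest, median and highest in the PH were 180, 194 and 285 at 14 days and 210, 218 and 307 at 4 months. In the POA the intact libraries had 202, 156, 254, 198 and 215, and the lowest, median and highest were 207, 229 and 264 at 14 days and 201, 212 and 284 at 4 months. The groups overlapped in each comparison, with 1 or 2 of the 6 OVX libraries above every intact one. In the PH the log2 fold change was 0.08 ± 0.16 at 14 days and 0.31 ± 0.15 at 4 months (unadjusted *P* = 0.058, adjusted *P* = 0.824, limma). In the POA it was 0.23 ± 0.11 at 14 days (unadjusted *P* = 0.0434, adjusted *P* = 0.807, limma) and 0.21 ± 0.11 at 4 months (unadjusted *P* = 0.057, adjusted *P* = 0.602, limma). Whether *Fcgr3* and its adaptor differed in fold change was not tested.

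*Fcgrt*, the IgG recycling receptor, had small differences from intact at both times in both regions. The 4 intact PH libraries ranged from 486 to 593, the 14-day libraries from 278 to 635 and the 4-month libraries from 418 to 734. In the POA the ranges were 470 to 596, 426 to 648 and 475 to 635. Every group overlapped with the others. The log2 fold changes against intact at 14 days and 4 months were -0.06 ± 0.13 and -0.03 ± 0.12 for the PH, and for the POA 0.05 ± 0.10 and 0.07 ± 0.10, with unadjusted *P* of at least 0.473.

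**Figure D2:**
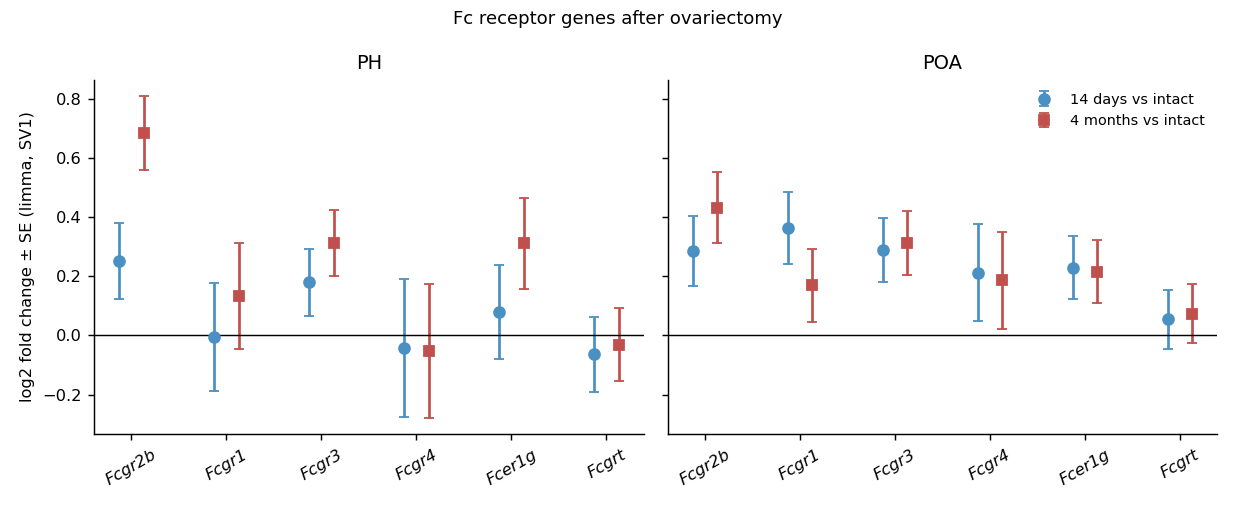
Log2 fold change against intact ± SE from limma for each Fc receptor gene, 14 days as circles and 4 months as squares, in the PH (left) and the POA (right). *Fcgr2b* at 4 months is the highest value in both regions (0.68 and 0.43), and *Fcgrt* lies within 0.08 of 0 at both times and in both regions.

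None of the 6 genes passed the threshold of adjusted *P* = 0.05 by limma in any comparison, and few genes of the whole table did in these fits. The study, which tested with DESeq2, reported more called genes in each comparison within a region. In the PH at 14 days, 0% of the 21991 genes tested were called, and 0 of the 6 members had an unadjusted *P* under 0.05 (668 of all genes did). In the PH at 4 months, 0.0318% of all genes were called, and 2 of 6 members, *Fcgr2b* and *Fcgr3*, had an unadjusted *P* under 0.05 (1334 of all genes did). For 4 months against 14 days in the PH, 0.00909% were called, and 1 member, *Fcgr2b*, had an unadjusted *P* under 0.05 (900 of all genes did). In the POA at 14 days, 0.00468% of the 21359 genes tested were called, and 4 of 6 members, *Fcgr1*, *Fcgr2b*, *Fcgr3* and *Fcer1g*, had an unadjusted *P* under 0.05 (1310 of all genes did). In the POA at 4 months, 0.0936% were called, and the 2 members with an unadjusted *P* under 0.05 were again *Fcgr2b* and *Fcgr3* (1816 of all genes did). For 4 months against 14 days in the POA, 0.0281% were called, and 0 members had an unadjusted *P* under 0.05 (1091 of all genes did). Since the members were chosen with these results known, the counts are a description.

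The direction of the differences was mostly upward in the POA. There, 6 of 6 members lay above 0 at 14 days and 6 of 6 at 4 months, with medians of 0.26 and 0.20. In the PH, 3 of 6 lay above 0 at 14 days and 4 of 6 at 4 months, with medians of 0.04 and 0.22. Over all genes tested, the median log2 fold change lay between -0.01 and 0.00 in these 4 comparisons, and 46.5% to 49.4% of the genes lay above 0. Both times are compared with the same intact libraries, so they are not independent of each other.

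The response to OVX in the PH was compared with that in the POA as a difference of log2 fold changes over all 33 libraries. Which PH and POA libraries share a mouse is not in the labels, so the SE and *P* of this difference may be off. At 14 days 0.00452% of the 22135 genes tested were called and at 4 months 0.00904%, and 0 of the 6 members were called at either time by limma, with 0 at an unadjusted *P* under 0.05 (662 and 799 of all genes). For *Fcgr2b*, the PH response exceeded that of the POA by 0.05 ± 0.18 at 14 days and by 0.27 ± 0.18 at 4 months (unadjusted *P* = 0.143). For *Fcgr1*, the difference was -0.39 ± 0.21 at 14 days (unadjusted *P* = 0.0762) and -0.04 ± 0.21 at 4 months. The unadjusted *P* of the other members was at least 0.294.

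The balance of the inhibitory and the most highly expressed activating receptor was described within each library as log2 *Fcgr2b* minus log2 *Fcgr3*. In the PH this difference averaged -1.42 ± 0.36 (SD, n = 4) in the intact group, -1.28 ± 0.16 (n = 6) at 14 days and -1.07 ± 0.27 (n = 6) at 4 months. Of the 4-month libraries, 4 of 6 lay above every intact library. In the POA the means were -1.32 ± 0.17 (n = 5), -1.33 ± 0.22 (n = 6) and -1.20 ± 0.31 (n = 6), and 1 of 6 4-month libraries lay above every intact one. The groups overlapped in both regions, and the shift was of the size of the spread between libraries. The small part of sequence that both genes share can move reads between them, which was not tested.

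**Figure D3:**
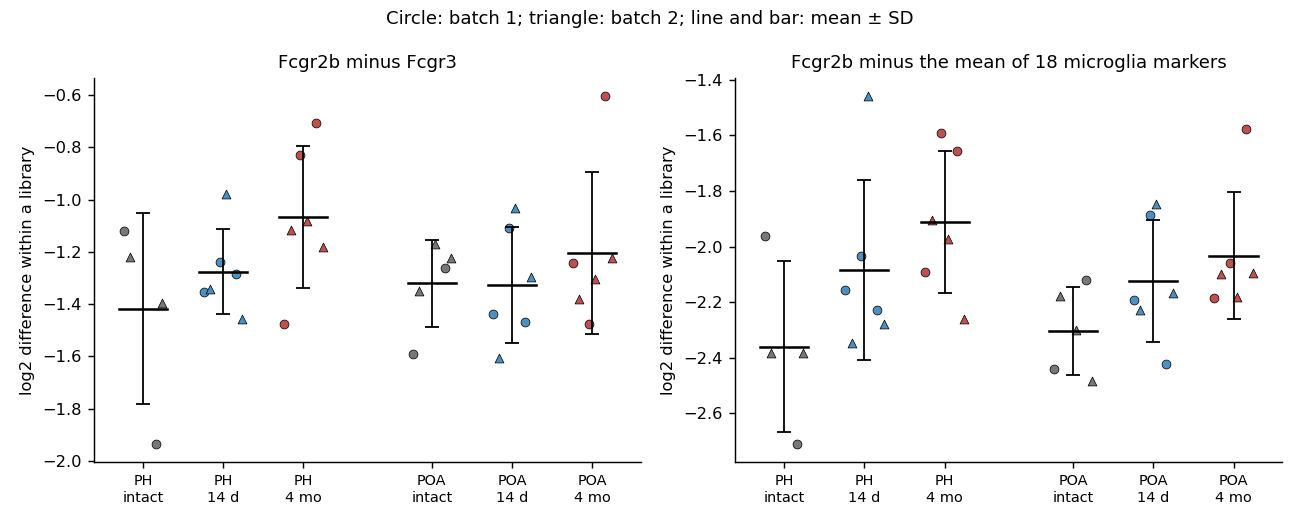
Log2 difference within each of the 33 libraries, for *Fcgr2b* minus *Fcgr3* (left) and for *Fcgr2b* minus the mean of 18 microglia markers (right), by region and group with mean ± SD. In the PH the mean on the left goes from -1.42 in intact mice to -1.07 at 4 months and on the right from -2.36 to -1.91, with overlapping libraries.

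The genes that act below the receptors were followed as a list of 40 IgG Fc receptor signalling genes (kinases, adaptors, phospholipases, phosphoinositide 3-kinases and the phagocytic machinery). At 4 months 0 of 40 were called in the PH or the POA by limma. In the PH 3 were higher at an unadjusted *P* under 0.05 and 0 lower, and in the POA 2 were higher and 2 lower. The medians at 4 months were 0.06 in both regions (0.065 in the PH, 0.056 in the POA). *Syk*, the kinase that binds the phosphorylated γ chain, had a log2 fold change at 4 months of -0.05 ± 0.14 (PH) and 0.01 ± 0.10 (POA). The genes with the smallest unadjusted *P* in the PH were *Pik3r5*, a regulatory subunit of phosphoinositide 3-kinase γ (0.57 ± 0.21), and *Plcg2*, the phospholipase C of myeloid and B cells (0.28 ± 0.11), with adjusted *P* of 0.678 and 0.712 (limma). In the POA they were *Fyn*, a Src-family kinase (-0.20 ± 0.05), and *Vav2* (-0.41 ± 0.11), with adjusted *P* of 0.221 and 0.261 (limma).

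A broad list of 20 inhibitory signalling genes, not limited to those that act below *Fcgr2b*, was followed, and 19 were tested. At 4 months 0 were called by limma in either region, 2 were higher at an unadjusted *P* under 0.05 in each, and the medians were 0.06 in the PH and 0.02 in the POA. *Inpp5d*, which encodes SHIP1, had log2 fold changes at 4 months of 0.25 ± 0.16 (PH) and 0.01 ± 0.16 (POA). The smallest unadjusted *P* belonged to *Csk*, a kinase that restrains Src-family kinases (0.23 ± 0.09), and *Siglech*, a lectin also listed as a microglia marker (0.23 ± 0.11), in the PH. In the POA they belonged to *Dok1*, an adaptor (0.33 ± 0.13), and *Ubash3b*, a phosphatase (0.21 ± 0.10).

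Of the other ITAM adaptors and their partner receptors, 16 were in the table and 10 were tested, 0 were called at 4 months by limma, and the median was -0.05 in the PH and 0.21 in the POA. *Tyrobp*, which encodes DAP12, another ITAM adaptor of microglia, had log2 fold changes at 4 months of 0.39 ± 0.13 in the PH (unadjusted *P* = 0.00683) and 0.47 ± 0.11 in the POA (unadjusted *P* = 2.91e-04, adjusted *P* = 0.131, limma). Its partner *Trem2*, a lipid-sensing receptor of microglia, had 0.29 ± 0.12 and 0.25 ± 0.10. Within libraries, log2 *Fcer1g* minus log2 *Tyrobp* averaged -0.76 ± 0.23 (SD, n = 4) in intact PH libraries and -0.85 ± 0.29 (n = 6) at 4 months, and -0.74 ± 0.13 (n = 5) and -1.0 ± 0.31 (n = 6) in the POA.

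Of 14 other Fc receptor genes, 7 passed the filter in the PH and 6 in the POA, with 0 called by limma. *Fcrls*, an Fc receptor-like gene used as a marker of homeostatic microglia, was lower by value than in intact mice in all 4 comparisons, with PH values of -0.26 ± 0.12 at 14 days and -0.34 ± 0.12 at 4 months and POA values of -0.29 ± 0.12 and -0.37 ± 0.12. Its unadjusted *P* at 4 months was 0.0102 (PH) and 0.00672 (POA), with adjusted *P* of 0.638 and 0.362 (limma). It was thus opposite in sign to *Fcgr2b* and *Fcgr3*. *Trim21*, a cytosolic IgG receptor, was at 0.33 ± 0.21 in the PH, and *Fcer2a*, the low-affinity IgE receptor, at 0.19 ± 0.12 in the POA.

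The ligand side was followed through immunoglobulin chains, of which 12 were in the table and 6 were tested. At 4 months 0 were called by limma, with medians of 0.27 in the PH and 0.22 in the POA. *Ighm*, the IgM heavy chain, was at 0.62 ± 0.23 and *Igha*, the IgA heavy chain, at 0.49 ± 0.22 in the PH, and *Ighg2c*, an IgG heavy chain, was at 0.49 ± 0.16 and *Igkc*, the κ light chain, at 0.29 ± 0.16 in the POA, with adjusted *P* of at least 0.362 (limma). The summed level of the 12 chains was 856 to 1129 in intact PH libraries and 1082 to 2640 at 4 months, with the highest in 4-month replicate 1 and the others at 1210 or below. That library had an *Fcgr2b* value of 224, below the median of its group, and without it the *Fcgr2b* log2 fold change in the PH was 0.73. *Ighg3*, *Iglc1*, *Iglc2* and *Iglc3* were under 2 times the floor in all 33 libraries.

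For FcRn, 15 partner and trafficking genes were listed and 14 tested, with 0 called by limma and medians at 4 months of 0.02 in the PH and -0.03 in the POA. *B2m*, which encodes its β2-microglobulin partner and that of MHC class I, had log2 fold changes at 4 months of 0.46 ± 0.14 in the PH (unadjusted *P* = 0.00324, adjusted *P* = 0.506, limma) and 0.31 ± 0.10 in the POA (unadjusted *P* = 0.00695, adjusted *P* = 0.365, limma). Within libraries, log2 *Fcgrt* minus log2 *B2m* averaged -2.42 ± 0.36 (SD, n = 4) in intact PH libraries and -2.82 ± 0.34 (n = 6) at 4 months, and -2.49 ± 0.29 (n = 5) and -2.77 ± 0.24 (n = 6) in the POA. *Rab5a*, of early endosomes, was at -0.14 ± 0.09 in the PH, and *Ehd3*, of recycling endosomes, at -0.18 ± 0.05 in the POA.

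The classical complement genes, whose first component C1q also binds the Fc part of IgG, were the only pathway list with called genes. At 4 months, 12 of 12 lay above 0 in both regions, with medians of 0.32 in the PH (0.315) and 0.28 in the POA. *C4b*, the fourth component, rose in the PH by a log2 of 1.19 ± 0.12 (adjusted *P* = 2.66e-04, limma) and in the POA by 0.98 ± 0.13 (adjusted *P* = 0.00303, limma). *C1qa*, a chain of C1q made by microglia, rose in the POA by 0.43 ± 0.08 (adjusted *P* = 0.0428, limma) and was at 0.40 ± 0.08 in the PH (adjusted *P* = 0.139, limma). The fold changes of *Fcgr2b* lay between those of *C1qa* and *C4b* in the PH, whereas in the POA they were 0.432 for *Fcgr2b* and 0.435 for *C1qa*.

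**Figure D4:**
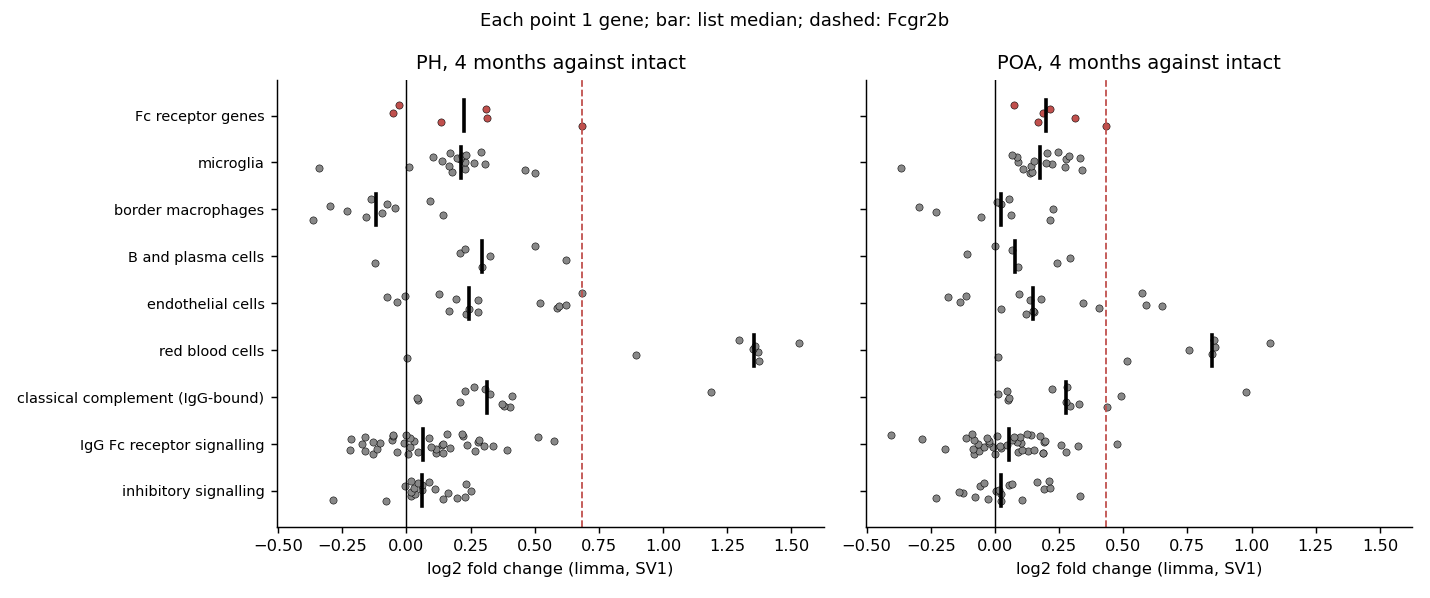
Log2 fold change at 4 months against intact for single genes of the Fc receptor set (red) and of 8 other lists (grey), with the median of each list as a bar and *Fcgr2b* as a dashed line, in the PH (left) and the POA (right). In the PH, *Fcgr2b* at 0.68 lies beyond each microglia marker, the highest of which is at 0.50, while the red blood cell markers have a median of 1.35 and *C4b* lies at 1.19.

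Microglia markers mostly lay above their intact values, with 0 called. All 18 microglia markers were over 2 times the floor in all 33 libraries, and their summed level was 20344 to 22606 in intact PH libraries, 21663 to 24132 at 14 days and 22668 to 26478 at 4 months. In the POA it was 20893 to 22965, 22763 to 24879 and 22986 to 26359. At 4 months all 6 libraries lay above every intact library in both regions. The margins were narrow, at 22668 against 22606 in the PH and 22986 against 22965 in the POA. At 4 months, 17 of 18 lay above 0 in each region, the exception being *Fcrls*, with medians of 0.21 (PH) and 0.18 (POA) and 0 called by limma (7 and 11 were higher at an unadjusted *P* under 0.05). At 14 days the medians were 0.09 and 0.13. In bulk tissue, more cells of a type and more RNA per cell cannot be told apart. The median of the Fc receptor genes at 4 months, 0.22 and 0.20, stood beside these marker medians of 0.21 and 0.18. *Fcgr2b*, at 0.68 and 0.43, lay above the highest of the 18 listed markers, 0.50 (PH) and 0.34 (POA). The microglial genes *Tyrobp* and *C1qa*, which are not in that list, had POA values of 0.468 and 0.435, just above the 0.432 of *Fcgr2b*. Within libraries, log2 *Fcgr2b* minus the mean of the 18 markers averaged -2.36 ± 0.31 (SD, n = 4) in intact PH libraries and -1.91 ± 0.26 (n = 6) at 4 months, with 3 of 6 above every intact library. In the POA it averaged -2.30 ± 0.16 (n = 5) and -2.03 ± 0.23 (n = 6), with 4 of 6 above. For *Fcgr3* the same difference was -0.94 ± 0.17 (n = 4) and -0.85 ± 0.16 (n = 6) in the PH and -0.98 ± 0.20 (n = 5) and -0.83 ± 0.15 (n = 6) in the POA.

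Other cells that could hold these receptors were followed through their own marker lists. Of 10 border macrophage markers, 3 were over 2 times the floor in all libraries, their summed level was 727 to 1018 in intact PH libraries and 674 to 815 at 4 months, and the median log2 fold change at 4 months was -0.12 in the PH and 0.02 in the POA. Of 10 monocyte markers, 4 were over 2 times the floor throughout, with medians of 0.12 in both regions and summed levels of 3177 to 5007 in intact PH and 4321 to 6113 in 4-month PH libraries. That list includes *Nr4a1*, *Fn1* and *Ace*, which are not particular to monocytes, so its sums may hold RNA of other cells. Of 10 neutrophil markers, 0 were over 2 times the floor in all libraries, and *Ly6g*, *Camp*, *Retnlg*, *Mmp8* and *Elane* were under it in all 33. The 3 tested in the PH had a median at 4 months of 0.19 and the 2 tested in the POA -0.16, with 0 called by limma. Of 7 mast cell markers, 2 were tested, with medians at 4 months of 0.20 (PH) and -0.26 (POA) and 0 called by limma. These 2 are among *Cpa3*, *Kit* and *Hdc*, of which *Kit* and *Hdc* are not particular to mast cells. In all 33 libraries, 2 of the 7 were over 2 times the floor and *Tpsb2*, *Cma1*, *Mcpt4* and *Tpsab1* were under 2 times the floor. For B and plasma cells, 2 of 9 were over it throughout, the median at 4 months was 0.30 (PH) and 0.08 (POA), and the summed level was 798 to 1091 in intact PH and 1052 to 2526 in 4-month PH libraries, of which all but replicate 1 lay at 1162 or below. For T and NK cells, 1 of 10 was over it throughout and *Ncr1*, *Gzma* and *Prf1* were under it in all 33.

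Markers of blood and vessels were examined as well. Of 8 red blood cell markers, 6 were over 2 times the floor in all libraries, and their summed level was 9794 to 11682 in intact PH libraries and 15398 to 40606 at 4 months, and 10297 to 19834 and 13172 to 26569 in the POA. *Alas2*, the erythroid enzyme of heme synthesis, rose at 4 months in the PH by a log2 of 1.37 ± 0.22 (adjusted *P* = 0.0301, limma). The 15 endothelial markers had summed levels of 14868 to 17430 in intact PH and 17006 to 23398 in 4-month PH libraries, with median log2 fold changes at 4 months of 0.245 (PH) and 0.148 (POA), and 0 called by limma. The part of blood, vessels and microglia in the *Fcgr2b* difference was not tested. The choroid plexus markers varied widely in sum within every group. They reached 67705 in intact PH, 87164 in 4-month PH and 94341 in intact POA libraries, with median log2 fold changes at 4 months of -0.15 (PH) and -0.16 (POA). Markers of neurons, astrocytes and oligodendrocytes had medians between -0.13 and 0.02 at 4 months in both regions.

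The members did not vary as 1 unit among the libraries. With log2 values centred on group and batch means, 1 of the 15 pairs of members had a Pearson correlation over 0.5 in both regions, *Fcgr3* with *Fcgr4*, at 0.72 over 16 PH libraries and 0.58 over 17 POA libraries. For 7 pairs the sign differed between the regions. *Fcgr2b* and *Fcgr3* had correlations of 0.12 and 0.06, and *Fcgr2b* and *Fcer1g* 0.63 and -0.10. These values describe libraries that share batch, dissection and normalization, and *Fcgr4* is near the floor. The genes most like each member by the lower of the 2 regional correlations, among 15888 protein-coding genes, were *Smim36*, *Mipol1* and *Bcl7b* for *Fcgr2b* (0.63 to 0.71), *Pfn1*, *Palmd* and *Jtb* for *Fcgr3* (0.75 to 0.79), *Map2k7*, *Snrpa* and *Tas1r1* for *Fcgr1* (0.67 to 0.82), *Pop5*, *1810024B03Rik* and *Or1r1* for *Fcgr4* (0.63 to 0.77), *Sncg*, *1700028K03Rik* and *1810009A15Rik* for *Fcer1g* (0.68 to 0.81) and *Hspbap1*, *Lman2l* and *Rpa1* for *Fcgrt* (0.74 to 0.87). Of these 18 genes, 0 belonged to any of the pathway or marker lists. They were picked as the highest of 15888 genes over 16 and 17 libraries and are a description only. Whether their correlations exceed what such a search gives by chance was not tested.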

How the data were processed

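RNA of flash-frozen PH and POA dissections was made into stranded mRNA libraries and sequenced by the authors, who used kallisto for pseudoalignment to mouse transcripts (mm39), tximport to sum transcripts by gene, and DESeq2 with SV1 for testing. The submitters' processing notes name kallisto, DESeq2 and mm39. The deposited table holds normalized signal on a linear scale, and the step that made this signal is not given in the sources used here. It holds 42824 entries, of which 1259 have no gene name and were left out. Its lowest value is 9.94 and unexpressed genes lie at 22.1.

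Log2 values without a pseudocount were fitted with limma (version 3.58.1, R 4.3.3, trend and robust variances) within a region, with terms for its 3 groups and for SV1, which was estimated in base R with 5 rounds of iterative reweighting. A gene was tested at 2 times the floor in at least 4 PH or 5 POA libraries. A test on counts had been planned and was replaced, since the values are not counts. The Benjamini-Hochberg adjustment covered every gene tested, with calls at an adjusted *P* under 0.05. The fits were tested on simulated data. The difference between regions was an interaction in 1 fit of 33 libraries.

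Samples were grouped by their labels. The members and the gene lists were chosen with earlier results of these data known. All 6 members are described, and from each pathway list the text names genes called in any comparison and, at 4 months against intact, the 2 tested genes with the smallest unadjusted *P* in each region. For each member, the 3 protein-coding genes with the highest lower correlation of the 2 regions are named. Other genes were named for their role or as absent markers, after their values were seen. Positions are from GENCODE M39, whereas the authors used M30. The fits were repeated with batch replacing SV1, without covariates, with SV1 plus batch, with a replicate block, with only the 2 groups compared, without the filter, with the floor subtracted (pseudocount 10), within single batches and with each library left out. Python 3.11.15 with numpy 2.4.6, pandas 2.3.3 and matplotlib 3.10.9 and, in R, statmod 1.5.0 were used. Same-numbered libraries of a region were not treated as pairs. Of 30 such pairs 21 had a correlation over 0.1, but so did 49 of 64 pairs of the same batch with other numbers, and with batch also centred 8 of 30 did. Centred likewise, PH and POA libraries of the same group and number had a median correlation of 0.042, with 5 of 16 over 0.1. For PH and POA libraries of the same group and batch with other numbers it was -0.028, with 2 of 30 over 0.1. Whether the number marks a shared mouse was not tested.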

Additional observations from a re-analysis of the deposited data

Results flagged for a closer look

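Each member was examined in each of the 6 groups of 4 to 6 libraries for a library far from the rest, 36 groups in all, and chance alone flags about 1 group in 20. For *Fcgr2b* in the PH at 14 days, replicate 5 had a deposited value of 291.6 and the other 5 libraries lay between 178.8 and 195.9, a gap of 0.813 of the range on the log2 scale. This is the library that also stands apart on SV1. No difference between the PH and the POA response passed the threshold for any member.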

How the results depend on the processing

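Among 229 counts of called members under alternatives, 227 were 0, and those for 4 months against intact in the PH ranged from 0 to 1 when single libraries were left out, 1 being *Fcgr2b* without PH intact replicate 1 (log2 fold change 0.77) or without PH 4-month replicate 1 (0.73). Its range with 1 library left out was 0.573 to 0.772. With a replicate block, that is with same-numbered libraries as pairs, *Fcgr2b* had 0.629 in the PH (adjusted *P* = 1, limma) and 0.431 in the POA at 4 months (adjusted *P* = 0.396, limma), and 0 members were called in any comparison. Of 866 values of single members under alternatives, 49 turned direction, 0 of them with an unadjusted *P* under 0.05. Most belonged to differences near 0 or to *Fcgr4* near the floor, with *Fcgr3* in the PH at 14 days (0.18, or -0.019 within batch 1) as an exception, and the cause was not tested. The sums of the table give no read depth, so what depth limits is unknown.

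In the PH at 14 days, *Fcgr4* turned to 0.027 with batch replacing SV1 or without covariates and to 0.28 within batch 2. *Fcgr1* turned to 0.023 with SV1 and batch, to 0.013 with only the 2 groups compared and to 0.0003 without the filter, *Fcer1g* to -5.3e-05 with the replicate block and to -0.085 within batch 1. In the PH at 4 months, *Fcgrt* turned to 0.0088 with batch replacing SV1 or without covariates and to 0.132 within batch 2, and *Fcgr4* to 0.241 within batch 2. In the POA, *Fcgr4* turned to -0.113 and *Fcgrt* to -0.016 at 14 days within batch 1, and *Fcgrt* to -0.091 at 4 months within batch 2. The PH minus POA response of *Fcgr1* at 4 months turned to 0.011 with batch replacing SV1 and to 0.0061 without covariates.

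With 1 library left out, values in the PH at 14 days ran from 0.138 to 0.359 for *Fcgr2b*, -0.142 to 0.068 for *Fcgr1*, -0.156 to 0.066 for *Fcgr4*, -0.017 to 0.221 for *Fcer1g* and -0.120 to 0.081 for *Fcgrt*. In the PH at 4 months they ran from -0.023 to 0.205 for *Fcgr1*, -0.184 to 0.162 for *Fcgr4* and -0.097 to 0.089 for *Fcgrt*. The PH minus POA response ran from -0.064 to 0.166 for *Fcgr2b* at 14 days and from -0.193 to 0.037 for *Fcgr1* at 4 months.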
